A study of Mus musculus with 4 samples.

Results

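Naive-like CD8 T cells made up 203 of the 13388 TCRβ+ CD8α+ cells sorted from mouse colon, among 16787 cells in the series. They were chosen by their own transcripts. A member had at least 2 UMIs (tags that count single captured transcripts) summed over Ccr7, Dapl1 and Igfbp4, and 0 UMIs of S100a4 and of Gzma. There were 127 members among 7603 Tcf7WT cells and 76 among 5785 Tcf7KO cells. In the TCRγδ libraries the same rule found 0 of 1888 Tcf7WT cells (a count of 0 allows up to 0.159% at 3 cells, and the exact interval reaches 0.195%) and 2 of 1511 Tcf7KO cells.

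The cells were intraepithelial lymphocytes (IELs), the T cells that lie within the lining of the gut, profiled cell by cell in droplets with a 3′ kit. Both TCRβ libraries were sorted as live CD3+ TCRβ+ CD8α+ cells from colon. The labels give the strain E8IcreTcf7fl/fl to Tcf7WT and to Tcf7KO alike, so the genotype label alone tells them apart. E8I-driven Cre is active in cells of the CD8 lineage. The stage at which a deletion made by it starts is not given in the sources used here. How many mice went into a library, and their age and sex, are not given in the sources used here. Each genotype was 1 library, so there is no replicate and no test. Intervals are exact 95% intervals that cover counting error only.

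Naive T cells circulate through lymph nodes and have not yet met their antigen. CCR7 brings them into the node, S1PR1 lets them leave, and the IL-7 receptor keeps them alive. The factors TCF-1 (Tcf7), LEF-1 and KLF2 are high in this state. Circulating CD8 T cells carry CD8 as an αβ pair, whereas many IELs of the gut carry CD8αα, natural killer receptors and the integrin αE, and stay in the tissue.

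Members were 1.67% (1.39 to 1.98) of the Tcf7WT cells and 1.31% (1.04 to 1.64) of the Tcf7KO cells. With each cell thinned to 1624 UMIs the shares were 1.39% (95 of 6844 cells) and 1.06% (56 of 5296), after 759 and 489 shallower cells were left out. The intervals overlapped. In the members with at least 2 of the choosing genes detected the shares were 1.14% (87 of 7603 cells) and 0.674% (39 of 5785). Without cells carrying other types' markers they were 2.61% (121 of 4629) and 1.91% (65 of 3396). Those markers include Kit, counted below as an IEL gene, and γδ T cell and epithelial genes. The filter took Tcf7WT from 7603 cells to 4629 and its members from 127 to 121, and Tcf7KO from 5785 cells to 3396 and its members from 76 to 65. With Lef1 and S1pr1 as choosing genes, a choice made after the data were seen, they were 3.37% and 3.41%. The size of the gap thus depended on how members were chosen, and with 1 library per genotype it was not tested. Members were no deeper than their neighbours. Their median was 2464 UMIs against 2431 in the other Tcf7WT cells, and 2861.5 against 2860 in Tcf7KO. They showed fewer genes, with a median of 1304 against 1417 and of 1459.5 against 1566. The libraries held 20289960 and 18372180 UMIs, of which members gave 325844 and 256761. The 2 libraries shared 10 barcodes, and no member of one had the barcode of a member of the other.

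The choosing genes were not spread alike over the genotypes. Ccr7, the lymph node homing receptor, was detected in 105 of 127 Tcf7WT members and in 74 of 76 Tcf7KO members. Dapl1 was detected in 63 and 27 members, and Igfbp4, a secreted binding protein of insulin-like growth factors, in 74 and 26. Ccr7 alone brought in 24 Tcf7WT members (18.9%) and 36 Tcf7KO members (47.4%). All 3 genes were seen in 28 and 12 members. The median sum was 5 UMIs in both libraries, and 38 and 11 members sat at the threshold of 2. Ccr7 stood at 1154 CPM (a gene's UMIs relative to all UMIs of the population) in Tcf7WT members against 5.71 in the other cells, and at 1281 against 7.34 in Tcf7KO. Dapl1 was at 531 against 1.05 CPM and 238 against 1.27 CPM, and Igfbp4 at 555 against 2.05 CPM and 261 against 1.44 CPM. These values chose the cells and are a description. In GRCm38 (GENCODE M21), Ccr7 lies at 11:99144196-99155077 on the minus strand, Igfbp4 nearby at 11:99041244-99054392 on the plus strand, and Dapl1 at 2:59484653-59505020 on the plus strand.

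Genes outside the rule set most members apart from the other cells of their library. At least 2 UMIs summed over Lef1, Il7r, S1pr1 and Cd8b1 were present in 121 of 127 Tcf7WT members (95.3%) and 71 of 76 Tcf7KO members (93.4%). In the other cells the shares were 9.34% and 10.8%. A smaller set of members also carried transcripts typical of IELs. At least 3 UMIs summed over Fcer1g, Tyrobp, Cd160, Xcl1, Klrb1a, Kit and Gzmb, a panel put together after values had been seen, were found in 13 Tcf7WT members (10.2%) and 16 Tcf7KO members (21.1%), against 93.2% and 95.01% of the other cells. In Tcf7KO, 13 of these 16 were among the 37 members with a single choosing gene, and 3 among the 39 with 2 or 3. In Tcf7WT the split was 5 of 40 and 8 of 87. Many genotype values below are therefore also given for members with at least 2 choosing genes. This subset cut the genotypes unlike. It left out 40 of 127 Tcf7WT members, 24 of them with Ccr7 alone, and 37 of 76 Tcf7KO members, 36 of them with Ccr7 alone. The part of this unlike cut in any ratio that shifted was not tested.

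**Figure D1:**
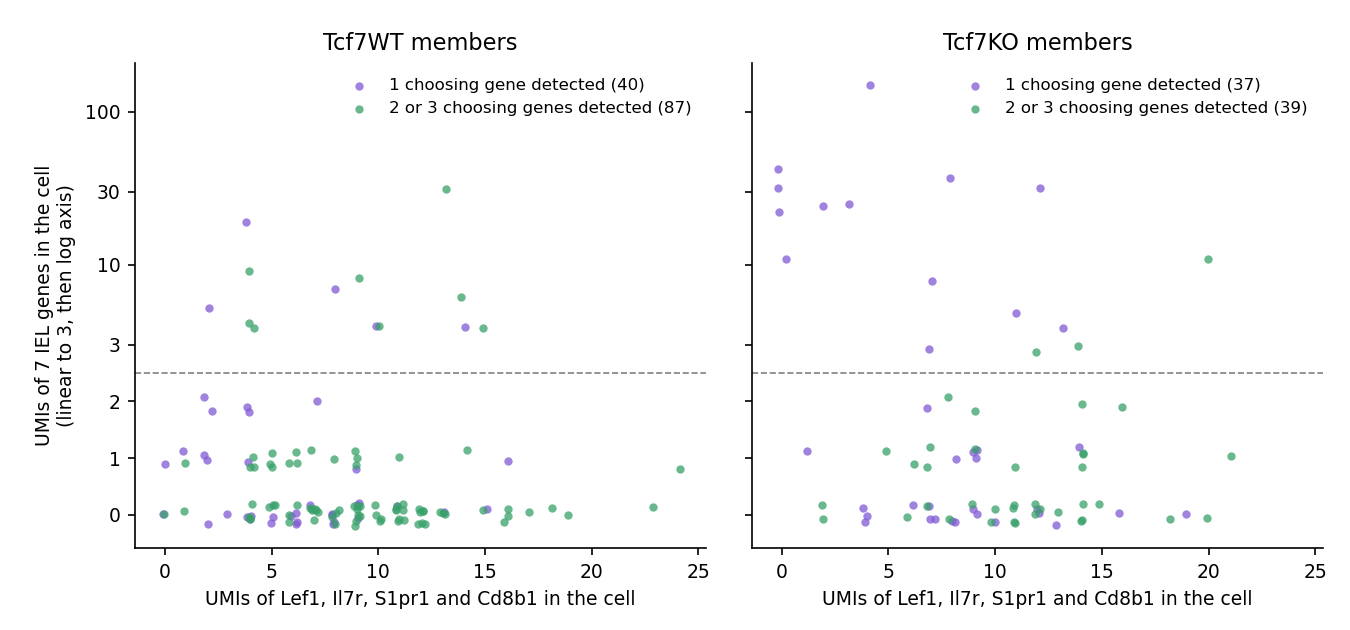
Each point is 1 member, with Tcf7WT on the left and Tcf7KO on the right. The horizontal axis gives UMIs of Lef1, Il7r, S1pr1 and Cd8b1. The vertical axis gives UMIs of 7 IEL genes (linear to 3, then log, small random offsets added). There are 13 Tcf7WT and 16 Tcf7KO members above the dashed line, which marks 3 or more IEL-gene UMIs.

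Epithelial and γδ T cell markers were lower in members than in the other cells. The stromal list, with 1 gene detected in members, was higher, and the other lists were closer. Of 9 epithelial genes, 6 were at 0 in Tcf7WT members and 5 in Tcf7KO members, including Krt8, Krt18, Muc2, Fabp2 and Phgr1 in both. Their summed level was 21.5 CPM against 377 in the other Tcf7WT cells, and 54.5 against 365 in Tcf7KO. The 4 γδ T cell genes summed to 24.6 against 202.3 CPM and 62.3 against 183 CPM. B cell genes stood at 33.8 against 36.2 CPM and 19.5 against 31.4 CPM, with Cd79a at 0 in Tcf7WT members. Of 7 stromal and endothelial genes each library lists 2, and Col1a1 was at 0 in the members of both. Their sum, in members from 1 gene with 18 and 7 UMIs, was 55.2 against 7.11 CPM and 27.3 against 7.34 CPM. At least 2 of these UMIs were present in 2 Tcf7WT members and 0 Tcf7KO members. Dendritic and myeloid genes were at 12.3 against 23.6 CPM and 27.3 against 23.4 CPM. Cd4, Foxp3 and Il2ra were at 0 in Tcf7WT members, and the CD4 and regulatory list stood at 35.1 against 36.3 CPM in Tcf7KO. Of the 2 NKT cell genes, the defining factor Zbtb16 was at 0 in the members of both libraries, and the list, there Plac8 alone, summed to 230.2 against 356 CPM and 397 against 459 CPM. At least 2 of its UMIs were present in 15.0% against 22.7% of Tcf7WT cells and in 31.6% against 33.7% of Tcf7KO cells. The NK and ILC list was at 178 against 312 CPM and 222 against 292 CPM. The part of any of these cells in the values below was not tested.

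Against the other cells of their library, members were high in genes of lymph node traffic, IL-7 response and the CD8β chain. Il7r was at 783 CPM in Tcf7WT members against 34.2 CPM in the other cells, and at 697 against 36.5 CPM in Tcf7KO, log2 ratios of 4.52 and 4.25. Cd8b1, which encodes the CD8β chain, was at 1706 against 88.4 CPM and 1328 against 79.3 CPM. Cd8a was lower in members, at 936 against 1354 CPM and 802 against 1391 CPM. The gene of the CD8β chain was thus high in members, and that of the chain shared with CD8αα cells was lower. Cd8b1 was also detected in 8.87% of the other Tcf7WT cells and 10.1% of the other Tcf7KO cells. On its own it does not show that a cell circulates.

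**Figure D2:**
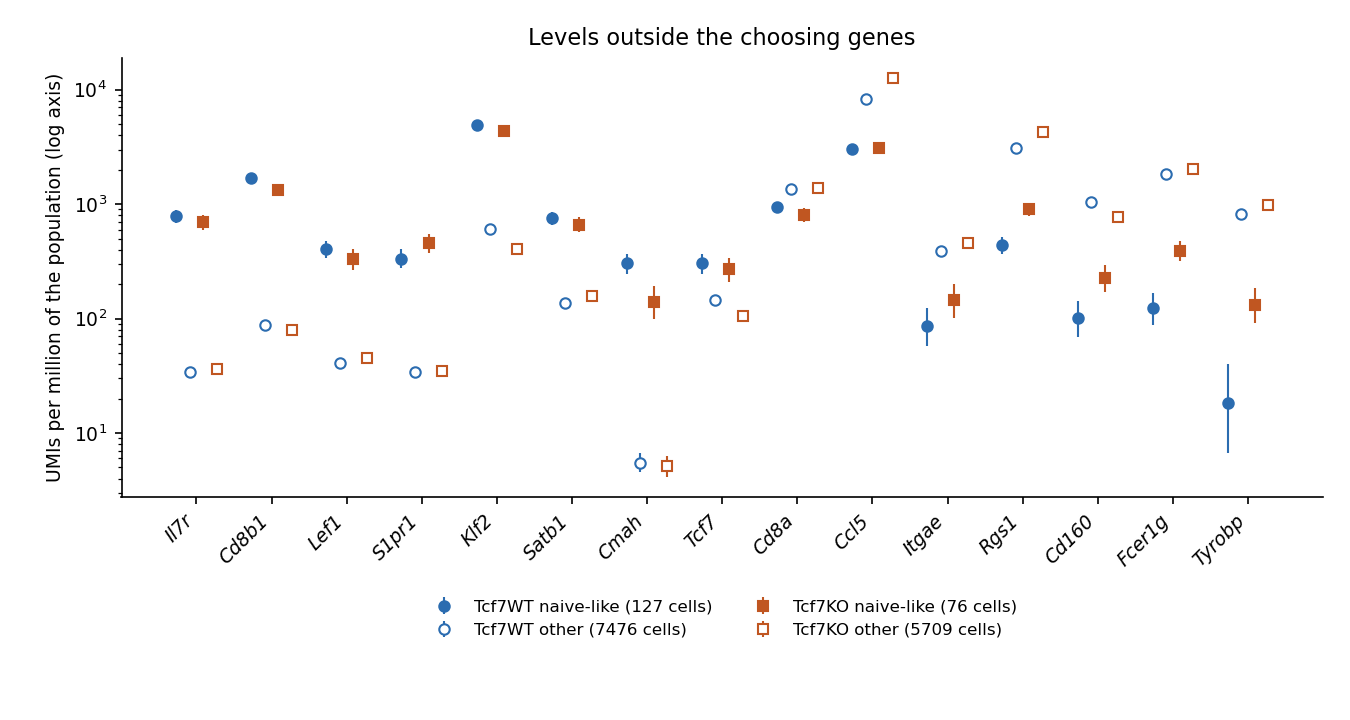
CPM (log axis) of 15 genes that the rule did not use, in naive-like members (filled) and other cells (open) of the Tcf7WT (circles) and Tcf7KO (squares) libraries, with 95% Poisson intervals. Il7r, Cd8b1, Lef1, S1pr1, Klf2, Satb1, Cmah and Tcf7 were higher in the members of both libraries, and Cd8a, Ccl5, Itgae, Rgs1, Cd160, Fcer1g and Tyrobp lower.

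Shares of cells gave the same picture at equal depth. After thinning, Cd8b1 was detected in 89.0% of 118 Tcf7WT members and 6.78% of the other cells, and in 79.7% of 69 Tcf7KO members and 6.83% of the others. Unthinned, the shares were 91.3% against 8.87% and 84.2% against 10.1%. Lef1 was detected in 43.2% against 5.72% of thinned Tcf7WT cells and in 46.4% against 6.96% in Tcf7KO. The unthinned shares were 55.9% against 9.002% and 60.5% against 11.8%. For Il7r the thinned shares were 60.2% against 3.32% and 56.5% against 4.07%. Fcer1g, the shared signalling chain of Fc and natural killer receptors, went the other way, in 11.02% of thinned Tcf7WT members against 83.6% and in 14.5% of Tcf7KO members against 87.2%.

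Homing and egress genes stood high as a group. Among 8 measured members of this list, 6 in Tcf7WT and 7 in Tcf7KO were at least 1.5-fold higher in members, with a median log2 ratio of 2.51 and 2.22. Over all genes with at least 50 UMIs, 17.1% in Tcf7WT and 19.5% in Tcf7KO were that much higher, 26.8% and 23.1% that much lower, and the medians were -0.13 and -0.05. The cells were chosen on this same contrast, so nothing is read from the counts. S1pr1, the egress receptor, was at 335 against 34.3 CPM and 456 against 34.6 CPM. Gpr183, which positions lymphocytes in lymphoid tissue, and Cxcr4, the receptor of CXCL12, had log2 ratios of 3.17 and 3.16 in Tcf7WT and of 3.16 and 2.73 in Tcf7KO. Klf2, which drives expression of S1pr1, was at 4913 against 602 CPM and 4354 against 403 CPM.

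Of 14 quiescence transcription factors, 11 in Tcf7WT and 9 in Tcf7KO were at least 1.5-fold higher in members, with medians of 1.23 and 1.19. Lef1 was at 402 against 40.7 CPM and 331 against 45.5 CPM. Satb1, a chromatin organiser of T cells, was at 749 against 137 CPM and 662 against 158 CPM. Klf3 had log2 ratios of 2.63 and 2.25, and Foxp1, which maintains naive quiescence, 1.13 and 1.03. Bach2, a repressor of effector genes, was at 138 against 20.2 CPM in Tcf7WT and 46.7 against 18.4 CPM in Tcf7KO. Id3 was lower in members, with log2 ratios of -1.67 and -0.47.

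Tcf7 was higher in members too, by less than the genes above. It stood at 304 CPM (99 UMIs in 62 cells) against 145 CPM in Tcf7WT, and at 269 CPM (69 UMIs in 41 cells) against 105 CPM in Tcf7KO. The log2 ratios to the other cells were 1.06 (0.76 to 1.35) and 1.36 (0.99 to 1.71). The Tcf7KO library therefore still held Tcf7 transcripts. Reads from a 3′ kit fall at the transcript's end, which exons are floxed is not given in the sources used here, and reads outside the deleted part do not check the label. Tcf7 lies at 11:52252371-52283014 on the minus strand.

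Growth restraint and receptor signalling genes were mixed. Of 12 genes of growth restraint, 6 were higher in each library, with medians of 0.58 and 0.59. Ms4a4b, a membrane protein of T cells, had log2 ratios of 2.59 and 2.61, and Dgka, which dampens receptor signals, 1.71 and 1.503. Tsc22d3, which encodes GILZ, stood at 1.39 and 0.92. Of 21 receptor signalling and costimulation genes, 10 and 9 were higher and 4 and 3 lower. The costimulatory receptor Cd28 was at 420 against 87.1 CPM and 366 against 87.9 CPM. Cd5 and Cd6, which tune receptor signals, had log2 ratios of 3.32 and 2.66 in Tcf7WT and of 3.19 and 2.55 in Tcf7KO, and the adaptor Lat 1.88 and 1.85. Cd3g was lower, at -1.003 and -1.02.

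Among cytokine receptors, 4 of 14 in Tcf7WT and 5 of 13 in Tcf7KO were higher. Il6ra, the IL-6 receptor chain, was at 110 against 0.902 CPM and 46.7 against 0.552 CPM. Il18r1 had log2 ratios of 2.36 and 2.82. Of 16 translation factors, 7 and 5 were higher and 0 lower, with medians of 0.53 and 0.47. The elongation factor Eef1b2 stood at 1.22 and 1.13, and the ribosome-bound Rack1 at 0.81 and 0.79. Immediate-early genes had medians of 0.44 and 0.39, with Nfkbia at 1.36 and 1.44 and Ier2 at 1.45 in both libraries.

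Ranked genes had at least 100 UMIs over members and other cells, with the choosing genes left out. Among them the highest ratios in Tcf7WT were led by Cmah, the enzyme that makes N-glycolylneuraminic acid. Il6ra, given above with a wider gap, had too few UMIs to be ranked. Cmah was at 304 against 5.51 CPM in Tcf7WT and 140 against 5.13 CPM in Tcf7KO, log2 ratios of 5.79 (5.38 to 6.19) and 4.77 (4.17 to 5.34). Il7r stood at 4.52 and 4.25. Lcn4 stood at 4.47 and 3.74, Ms4a4c at 4.39 and 4.67, and Cd8b1 at 4.27 and 4.07. Cd55, which restrains complement, stood at 3.79 and 2.99, and AB124611 at 3.77 and 4.07. Gstp3, Als2cl, Gramd3 and Plekho1 followed at 3.68, 3.57, 3.57 and 3.57 in Tcf7WT and at 3.36, 4.16, 3.60 and 2.36 in Tcf7KO. Each gene named from this ranking was higher in the members of the Tcf7KO library as well.

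Genes of tissue residency and of natural killer signalling were low in members. Of 14 NK receptor and ITAM adaptor genes, 12 in Tcf7WT and 13 in Tcf7KO were at least 1.5-fold lower, with medians of -2.74 and -2.26. Tyrobp (DAP12), an ITAM adaptor, was at 18.4 against 815 CPM and 132 against 988 CPM. Fcer1g was at 123 against 1836 CPM and 389 against 2033 CPM. Of 14 residency genes, 12 and 11 were lower, with medians of -2.09 and -1.48. Itgae, the αE integrin that binds epithelial E-cadherin, stood at -2.18 and -1.67, Itga1 at -2.61 and -2.23, and the aryl hydrocarbon receptor gene Ahr at -2.22 and -1.72. Rgs1, a brake on chemokine receptor signals, was at 439 against 3099 CPM and 907 against 4242 CPM. Cd38 had 0 UMIs in Tcf7WT members against 90.9 CPM in the other cells, at least 9.87-fold lower against a floor of 3 UMIs over the members, and was at 35.1 against 99.4 CPM in Tcf7KO.

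Cytotoxic genes were lower in 11 of 19 cases in Tcf7WT and 13 of 19 in Tcf7KO, with a median of -1.08 in both. They were higher in 3 and 1. Over all genes 26.8% and 23.1% were lower. Members were chosen for 0 Gzma UMIs, so nothing is read from these counts. Gzmb was at 43.0 against 891 CPM and 354 against 2572 CPM. The chemokine Xcl1 was at 129 against 1668 CPM and 460 against 1772 CPM. The lowest ratios in Tcf7WT rested on few UMIs. Klrb1a had 2 UMIs, a log2 ratio of -5.00 (-8.04 to -3.14), and stood at -1.94 in Tcf7KO. Lgals3 also had 2 UMIs, a log2 ratio of -4.77 (-7.82 to -2.92), and stood at -1.79. Prr5, Trf, Itih5, Ptprj, Dynlt3 and Fes had 1 UMI each in Tcf7WT members, and Chn2 and Cd200r4 had 2. In the other Tcf7WT cells these 8 genes lay between 58.5 CPM (Fes) and 132 CPM (Chn2). Inhibitory and exhaustion genes were lower in 7 of 11 cases in each library, and higher in 2 in Tcf7WT and 1 in Tcf7KO. GIMAP genes, a family of lymphocyte GTPases, were lower in 4 of 8, with Gimap4 at -1.21 and -0.66.

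The S100a4-positive cells of the same libraries (at least 2 S100a4 UMIs and 0 of Gzma), 211 in Tcf7WT and 110 in Tcf7KO, came closest to the members in several genes. Ly6c2, a surface protein of circulating CD8 T cells, was at 460 CPM in members against 486 in S100a4-positive cells in Tcf7WT, and at 382 against 367 in Tcf7KO. Cd28 was at 420 against 317 CPM and 366 against 345 CPM. Members had more Il7r, at 783 against 210.2 CPM and 697 against 145 CPM, and more Cd8b1, at 1706 against 615 CPM and 1328 against 265 CPM. S100a6 was lower in members than in S100a4-positive cells, at 95.1 against 1653 CPM and 175 against 1407 CPM. The 2 groups were cut on S100a4 in opposite ways, so this gap is a description. In the cells outside all classes of this paragraph S100a6 was at 142 CPM in both libraries. In Gzma-positive cells (at least 2 UMIs; 543 and 1359 cells) Il7r was at 6.73 and 19.02 CPM and Tcf7 at 23.3 and 53.3 CPM.

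Members differed among themselves in Ccl5, a chemokine made by memory and effector cells. No Ccl5 UMI was seen in 73 Tcf7WT and 41 Tcf7KO members, and the 32 and 20 members with at least 5 held 97.6% and 97.5% of the members' Ccl5 UMIs. Of these, 20 and 7 had fewer than 3 IEL-panel UMIs. Ly6c2 was detected in 14 of those 20 and 6 of those 7 cells, at 1190 and 1020 CPM, against 327 and 241 CPM in members without Ccl5. Cxcr3, a homing receptor of memory cells, was at 137 and 310 CPM there, and at 5.84 CPM (1 UMI) and 8.93 CPM (1 UMI) in members without Ccl5. The other 12 and 13 members with at least 5 Ccl5 UMIs had Fcer1g at 640 and 1036 CPM. Their Cd8b1 was at 1280 CPM in Tcf7WT and 407 CPM in Tcf7KO. They were deep cells, with a median of 4262 and 5230 UMIs, against 2464 and 2861.5 over all members. These groups were cut after values had been seen.

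Levels outside the rule were graded by the number of choosing-gene UMIs. In Tcf7WT cells with 0 UMIs of S100a4 and Gzma, Cd8b1 was at 60.8, 500, 1349, 1729 and 1885 CPM in cells with 0, 1, 2, 3 to 4 and at least 5 choosing-gene UMIs. In Tcf7KO it was at 57.7, 578, 724, 1475 and 1429 CPM. Cells just outside the threshold, with 1 UMI (58 and 34 cells), had Il7r at 196 and 449 CPM, and those just inside, with 2 (38 and 11 cells), at 529 and 399 CPM. At full depth Il7r was thus higher just inside the threshold in Tcf7WT, and in Tcf7KO the 2 intervals overlapped. Thinned cells were grouped by their thinned counts. In Tcf7WT 118 members were deep enough to thin, and 95 thinned cells met the rule. The thinned group with 1 UMI can thus hold full-depth members, and does not describe cells just outside the threshold. In these thinned Tcf7WT cells no such step was seen. Il7r was there at 471 CPM (335 to 644) with 1 UMI and at 493 CPM (316 to 733) with 2. Fcer1g in cells with 1 UMI was at 810 and 788 CPM, and in cells with 2 at 173 and 849 CPM. The Tcf7KO members at the threshold were of unlike kinds, as 4 of the 11 held 22 to 42 IEL-panel UMIs and the other 7 held none. Ccl5 in Tcf7WT was at 8560.02 CPM at 2 UMIs and at 696 CPM at 5 or more, and in Tcf7KO it was at 1922 and 3642 CPM. Thinned, Ccl5 was at 4351 and 708 CPM in Tcf7WT and at 3120 and 2291 CPM in Tcf7KO. A further 9 and 11 cells with at least 2 choosing-gene UMIs were kept out by a single UMI of S100a4 or Gzma, and 11 in each library by 2 or more.

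**Figure D3:**
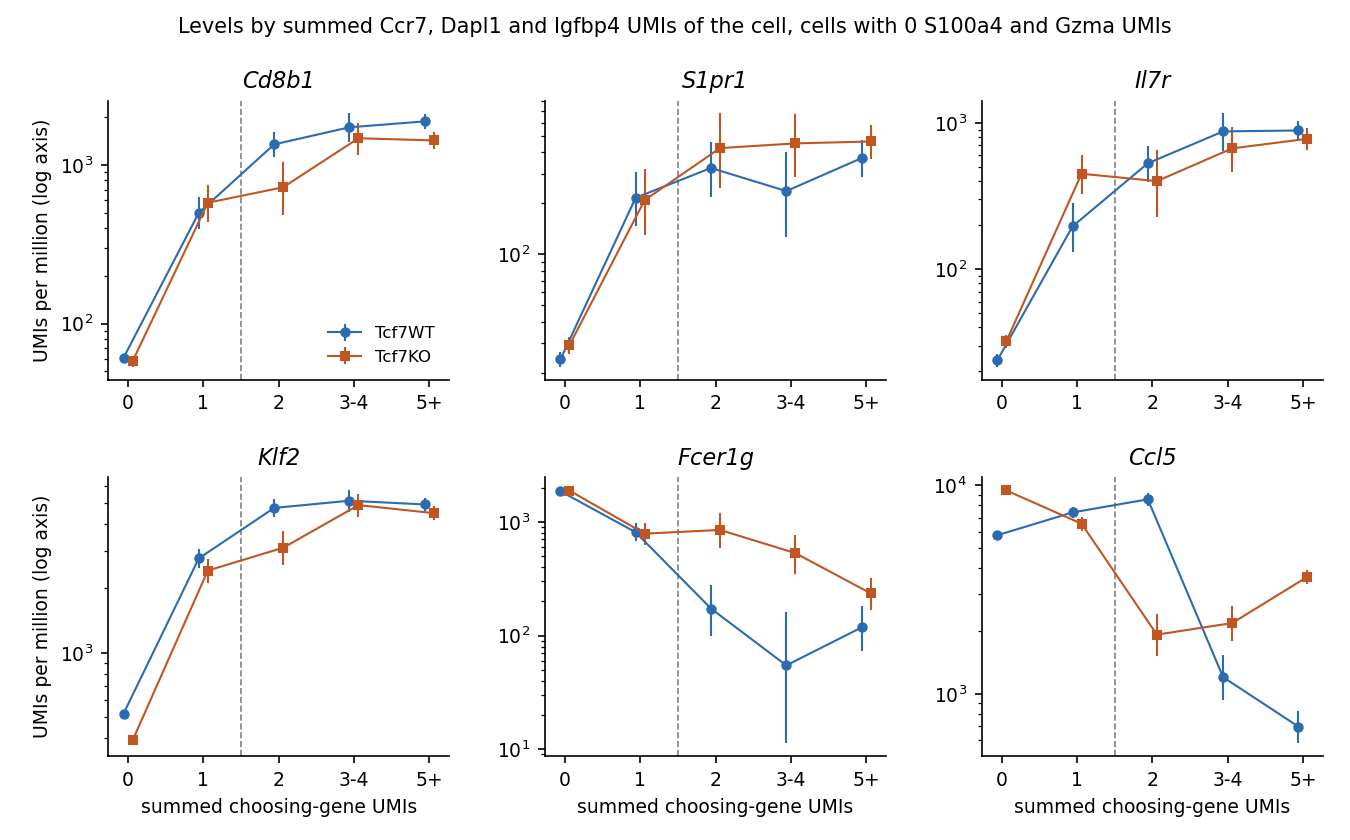
CPM (log axis, 95% Poisson intervals) of 6 genes against the summed UMIs of Ccr7, Dapl1 and Igfbp4 in the cell, for Tcf7WT (circles) and Tcf7KO (squares); the dashed line is the threshold. Cd8b1, S1pr1, Il7r and Klf2 were lowest in cells with 0 choosing-gene UMIs in both libraries, and Fcer1g was highest there.

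Between genotypes, most genes of the naive state were close within the members. Of 2161 genes with at least 50 UMIs, 6.43% were at least 1.5-fold higher in Tcf7KO members and 5.28% lower, with a median log2 ratio of 0.01. In the other cells 2.13% of 11742 genes were higher and 3.78% lower, with many more UMIs behind each gene. Tcf7 differed by -0.18 (-0.64 to 0.28) on the log2 scale in members and by -0.47 in the other cells. Il7r differed by -0.17 (-0.45 to 0.11), and Lef1 by -0.28 (-0.69 to 0.12). With at least 2 choosing genes Tcf7 stood at -0.033, Il7r at 0.25 (-0.10 to 0.59) and Lef1 at -0.17 (-0.71 to 0.34). These intervals include 0, which does not show that the levels are equal. Klf2 differed by -0.17 (-0.29 to -0.06) in members and by -0.58 in the other cells, and by 0.18 (0.03 to 0.32) in members with at least 2 choosing genes. Cd8b1 differed by -0.36 (-0.56 to -0.16), and by 0.08 (-0.16 to 0.32) with at least 2 choosing genes. S1pr1 was higher in Tcf7KO members, by 0.45 (0.06 to 0.84) and by 0.70 (0.22 to 1.18) with at least 2 choosing genes.

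Dapl1, Igfbp4 and Cmah were lower in Tcf7KO members. Since Dapl1 and Igfbp4 chose the members, they were read in cells chosen by Lef1 and S1pr1 instead (at least 2 UMIs; 256 Tcf7WT and 197 Tcf7KO cells, of which 72 and 51 were members). There, Dapl1 was at 128 CPM in Tcf7WT and 63.5 CPM in Tcf7KO, a log2 ratio of -1.01 (-1.56 to -0.48). Igfbp4 was at 185 and 73.9 CPM, a log2 ratio of -1.33 (-1.82 to -0.85). Ccr7 was at 333 and 368 CPM, a log2 ratio of 0.14 (-0.12 to 0.40). The choosing genes were also read with each left out of the choice in turn. In cells chosen by Ccr7 and Igfbp4 (109 and 72 cells), Dapl1 had a log2 ratio of -1.05 (-1.54 to -0.57). In cells chosen by Ccr7 and Dapl1 (105 and 73 cells), Igfbp4 had one of -0.90 (-1.36 to -0.45). In cells chosen by Dapl1 and Igfbp4 (82 and 27 cells), Ccr7 had one of -0.02 (-0.39 to 0.34). Dapl1 and Igfbp4 were thus lower in both choices, and Ccr7 had intervals that include 0. The choices are not independent, as all cells chosen with 1 gene left out were members. In members with at least 2 choosing genes, a subset set by these same genes, both intervals include 0. Dapl1 stood there at -0.41 (-0.88 to 0.04) and Igfbp4 at -0.19 (-0.62 to 0.23).

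**Figure D4:**
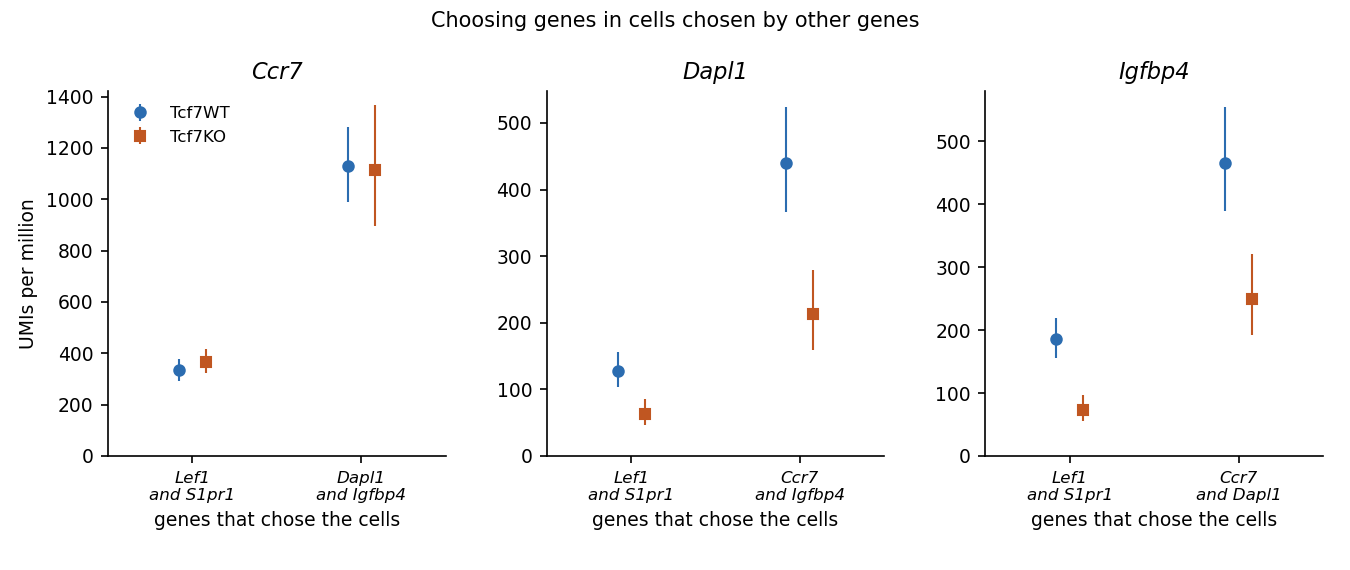
CPM with 95% Poisson intervals of Ccr7, Dapl1 and Igfbp4 in cells chosen by the genes named under each pair of points, all with 0 UMIs of S100a4 and Gzma, in Tcf7WT (circles) and Tcf7KO (squares). Dapl1 and Igfbp4 sit lower in Tcf7KO in both choices, and for Ccr7 the intervals of the 2 libraries overlap.

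Cmah was at 304 CPM in Tcf7WT members (68 cells) and 140 CPM in Tcf7KO members (25 cells), a log2 ratio of -1.12 (-1.71 to -0.55) against -0.10 in the other cells. It was -0.62 (-1.36 to 0.08) in members with at least 2 choosing genes and -0.37 (-0.91 to 0.15) in cells chosen by Lef1 and S1pr1. The 250 bases before the annotated starts of Dapl1, Igfbp4 and Cmah were searched on both strands. The letters sought were the TCF/LEF core CTTTGA and the forkhead motif TGTTTAC. Any part of TCF-1 in the levels of these genes was not tested. No match overlapped another. Sequences are from RefSeq (GRCm38.p6), all on the plus strand, and capitals mark a match, here read on the opposite strand. Dapl1 is chr2:59484403-59484652, Igfbp4 chr11:99040994-99041243 and Cmah, at the first of its annotated starts, chr13:24327154-24327403.
Dapl1: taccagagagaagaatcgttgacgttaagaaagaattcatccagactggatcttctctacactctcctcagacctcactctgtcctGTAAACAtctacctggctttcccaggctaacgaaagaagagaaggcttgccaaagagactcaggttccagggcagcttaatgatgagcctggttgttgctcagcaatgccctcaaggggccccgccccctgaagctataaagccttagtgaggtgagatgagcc
Igfbp4: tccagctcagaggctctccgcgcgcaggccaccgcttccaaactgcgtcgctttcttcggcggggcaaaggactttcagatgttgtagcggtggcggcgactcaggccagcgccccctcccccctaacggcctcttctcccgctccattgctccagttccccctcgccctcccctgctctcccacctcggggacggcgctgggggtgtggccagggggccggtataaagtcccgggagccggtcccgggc
Cmah: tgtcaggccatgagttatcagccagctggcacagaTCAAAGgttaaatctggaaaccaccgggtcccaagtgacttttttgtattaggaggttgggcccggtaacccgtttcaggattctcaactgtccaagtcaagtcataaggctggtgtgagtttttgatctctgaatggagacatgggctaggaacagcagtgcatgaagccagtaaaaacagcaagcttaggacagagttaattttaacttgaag
Dapl1 held a forkhead match 164 bases before the start, a motif found in 3.17% of all 32851 windows of this length. Cmah held a TCF/LEF match 215 bases before the start, a motif found in 13.8% of windows. Igfbp4 and the other annotated start of Cmah (chr13:24414872-24415121) held neither. A match describes the letters and is not a measured binding site.

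Among the other low ratios in Tcf7KO members were Tagap1, Rasa3 and Tagap, which encode regulators of small GTPases. Tagap1 was at 298 against 144 CPM, Rasa3 at 255 against 125 CPM and Tagap at 307 against 171 CPM, log2 ratios of -1.05, -1.03 and -0.84. Tagap1, Rasa3 and Tagap stood at -0.48, -0.36 and -0.46 with at least 2 choosing genes, all with intervals that include 0. The integrin chain Itga4 stood at -0.90, Sec11a at -0.88, Cnot6l at -0.85, Rflnb at -0.82 and Rnf167 at -0.82. In members with at least 2 choosing genes Itga4, Sec11a, Rflnb and Rnf167 stood at -0.64, -0.58, -0.43 and -0.73, with intervals that include 0, and Cnot6l at -0.97 (-2.02 to -0.036). Itga4 turned to 0.13 in thinned cells. Hspa1b, an inducible heat shock protein, was at 1783 against 1005 CPM, a log2 ratio of -0.83 (-1.04 to -0.61), and of -1.23 (-1.59 to -0.88) with at least 2 choosing genes. Tagap and Tagap1, like Hspa1b and Hspa1a, are near-identical copies, and how the counting split their reads is not given in the sources used here. In cells chosen by Lef1 and S1pr1, Tagap and Hspa1b stood at 0.20 and 0.21, the opposite direction, and Tagap1 at -0.034, whereas Rflnb stood at -0.46 and Rasa3 at -0.36.

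From the lists, Bach2 stood at -1.56 (-2.62 to -0.62), Il6ra, a chain of the IL-6 receptor, at -1.24 (-2.32 to -0.27) and the inhibitory receptor Ctla4 at -1.24, and Ctla4 was 0.80 higher in the other Tcf7KO cells. With at least 2 choosing genes Bach2 stood at -0.80 (-2.05 to 0.30), Il6ra at -0.89 (-2.13 to 0.20) and Ctla4 at -1.92 (-3.89 to -0.42). In cells chosen by Lef1 and S1pr1, Bach2 stood at -0.54 (-1.24 to 0.13) and Il6ra at -0.74 (-1.83 to 0.29). Ctla4 turned there, to 0.62 (0.08 to 1.16).

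Higher ratios in Tcf7KO members fell into those that also held in members with at least 2 choosing genes and those that did not. Cxcr6, a chemokine receptor of tissue T cells, was at 120 against 292 CPM, a log2 ratio of 1.29 (0.71 to 1.88), of 1.18 with at least 2 choosing genes, and of 1.41 in the other cells. Hnrnpa0, an RNA-binding protein, stood at 1.38, 1.19 and 0.95 in the same order, and Mbd2, which binds methylated DNA, at 1.41, 1.13 and 0.66. Purb stood at 1.22, 1.03 and 0.32, Atp5k, an ATP synthase subunit, at 0.94, 0.94 and 0.80, and Rgs1 at 1.05, 0.63 and 0.45. Dusp2, a phosphatase of MAP kinases, was at 304 against 541 CPM, and stood at 0.83, 1.27 and -0.14.

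Most IEL genes among the highest ratios were near or below 0 in members with at least 2 choosing genes. Gzmb was at 43.0 against 354 CPM, a log2 ratio of 3.04 (2.22 to 3.97), but 56 of the 91 Tcf7KO UMIs came from 1 cell, and with at least 2 choosing genes the ratio was 1.20 (-0.35 to 2.77). Gzmb stayed above 0 in members with a Cd8b1 UMI, at 1.57 (0.58 to 2.62), and in those with fewer than 3 IEL-panel UMIs, at 3.23 (1.03 to 6.44) from 2 and 11 UMIs. Xcl1 stood at 1.83 (1.31 to 2.38) and at 0.10 (-1.16 to 1.28) with at least 2 choosing genes. Fcer1g stood at 1.67 and at -1.51 (-3.23 to -0.12), Cd7 at 1.33 and -0.17, and Cd160 at 1.16 and -0.32. Gzmb, Xcl1, Fcer1g and Cd160 are part of the IEL panel, so the panel's share of members, 10.2% and 21.1%, is no separate measure of them. Without the members with at least 3 panel UMIs Cd7, which is not in the panel, stood at 0.03 (-0.53 to 0.57), and Rgs1 at 0.61 (0.18 to 1.03). The part of other cells' RNA or of captured cell pairs was not tested.

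**Figure D5:**
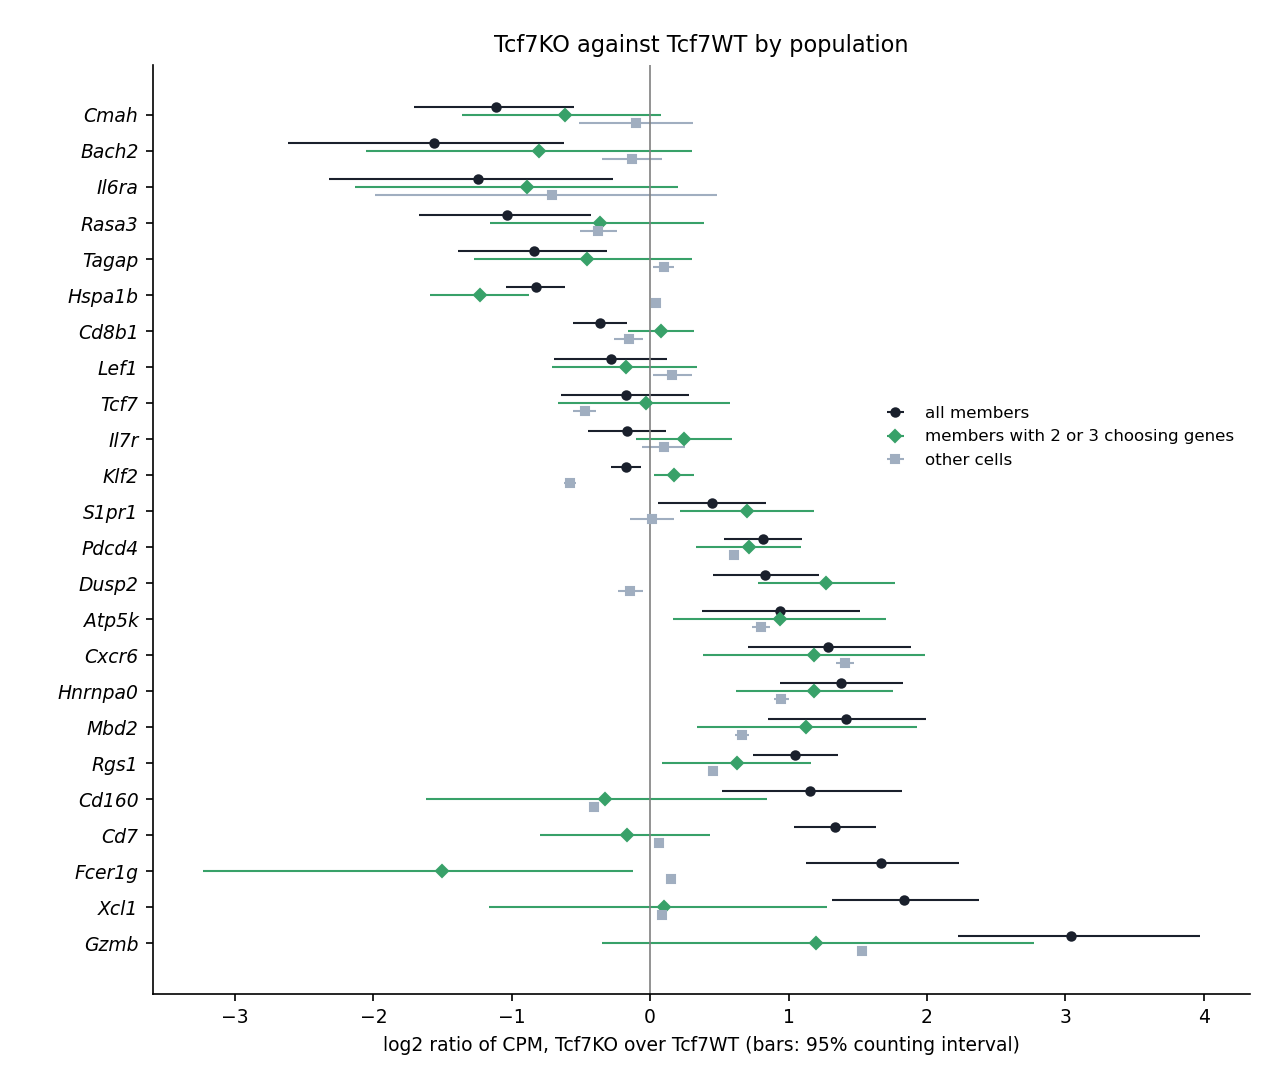
Log2 ratio of CPM, Tcf7KO over Tcf7WT, for 24 genes in all members (circles), in members with at least 2 choosing genes (diamonds) and in the other cells (squares), with 95% counting intervals. Cxcr6, Hnrnpa0, Mbd2 and Atp5k lie above 0 in all 3, and Fcer1g, Cd7 and Cd160 lie above 0 in all members and below 0 with at least 2 choosing genes.

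By list, residency genes were at least 1.5-fold higher in Tcf7KO members in 5 of 8 cases, with a median of 0.78, beside 6.43% of all genes. With at least 2 choosing genes 5 of these genes had 50 UMIs, with a median of 0.63, and with thinned cells 4, with a median of 0.32. Members with at least 3 IEL-panel UMIs were 10.2% in Tcf7WT and 21.1% in Tcf7KO, and Cd160 is on both lists. No receptor signalling gene (of 19) and no translation factor (of 15) was 1.5-fold apart in either direction, with medians of -0.08 and -0.24. Homing genes had a median of -0.08, quiescence factors of -0.18 and growth restraint genes of -0.38, and with at least 2 choosing genes these were 0.35, -0.033 and -0.11. In the last list, Btg1, which slows proliferation, stood at 0.46 (0.34 to 0.58) and Pdcd4, an inhibitor of translation initiation, at 0.81 (0.53 to 1.10), while Tsc22d3 stood at -0.48 (-0.74 to -0.22). With at least 2 choosing genes Btg1 stood at 0.65 (0.49 to 0.80), Pdcd4 at 0.71 (0.33 to 1.09) and Tsc22d3 at -0.26 (-0.61 to 0.07).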

How the data were processed

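Single-cell RNA was measured in 4 libraries of mouse colon IELs, and the 2 TCRβ libraries were compared here. Each library's deposited matrix gives UMI counts as whole numbers for every listed gene in every cell. Cells came from a 3′ droplet kit, version 2, per the labels' protocols. Seurat 3.0.0, GRCm38 and mm10 are named, without their roles, in the submitters' processing notes; the aligner, counter and filters are not given in the sources used here. The files list 14661 and 14323 genes for Tcf7WT and Tcf7KO, 14018 in both.

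UMIs were summed over members and over other cells and divided by the population's total (CPM). CPM have exact Poisson intervals, log2 ratios exact conditional binomial intervals and shares exact Clopper-Pearson intervals (Python 3.11.15, scipy 1.17.1). Only the log2 ratio intervals were tried on simulated data. These were Poisson draws of summed counts, so they do not cover UMIs that cluster in single cells. No test was made, since each genotype is 1 library and cells are not replicates. The libraries held 20289960 and 18372180 UMIs, and 1 UMI in Tcf7WT members is worth about 3.07 CPM. No doublet caller was run, and doublets were not removed.

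Members, gene lists and rules were chosen with earlier results of these data known. Genes were named by rank, out of those that both libraries list and that had 100 UMIs or more in the pair of populations and 50 CPM in the higher one. These were the 12 highest and 12 lowest log2 ratios of members to other cells in Tcf7WT and the 10 highest and 10 lowest of Tcf7KO to Tcf7WT members. Left out were the 5 choosing and excluding genes, receptor and immunoglobulin segments, ribosomal and mitochondrial genes, haemoglobins, sex-linked genes and unnamed models. List genes with at least 20 UMIs, and Tcf7, could also be named. One gene is not reported here. The alternatives were other thresholds, choosing genes and cell filters, thinning, DESeq2 1.42.0 size factors, TMM factors from edgeR 4.0.16, equal weight per cell, and minimums of 20 and 200 UMIs. Members chosen by Lef1 and S1pr1, and subsets by choosing genes, Cd8b1, the IEL panel and the top cell were added after the data were seen.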

Additional observations from a re-analysis of the deposited data

Results flagged for a closer look

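For the 14 genes below, the Tcf7KO to Tcf7WT log2 ratio had opposite signs in the naive-like members and in the other cells. Both counting intervals were clear of 0. No share over all genes stands beside this count, so nothing is read from it. With 1 library per genotype the difference between the populations was not tested. Among genes higher in Tcf7KO members, Cd160 stood at 1.16 in members and -0.41 in the other cells, Ikzf2 at 0.904 in members and -0.13 in the other cells, Id3 at 0.819 in members and -0.38 in the other cells and S100a6 at 0.881 in members and -0.31 in the other cells. Of these, Cd160, Ikzf2 and S100a6 were negative in members with at least 2 choosing genes, at -0.32, -1.17 and -0.78. For Id3, 26 of 57 Tcf7KO UMIs came from 1 cell, and without it the ratio was 0.05. Dusp2 stood at 0.833 in members and -0.14 in the other cells, and at 1.27 with at least 2 choosing genes. Gimap4 stood at 0.473 in members and -0.08 in the other cells, Vim at 0.495 in members and -0.15 in the other cells and Tpi1 at 0.846 in members and -0.09 in the other cells, and Tpi1 at 0.56 (-0.59 to 1.67) with at least 2 choosing genes.

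Among genes lower in Tcf7KO members, Tagap1 stood at -1.05 in members and 0.10 in the other cells, Tagap at -0.841 in members and 0.10 in the other cells and Hspa1b at -0.827 in members and 0.04 in the other cells. Txnip, which restrains glucose uptake, stood at -0.442 in members and 0.19 in the other cells, Srgn, the proteoglycan of cytotoxic granules, at -0.369 in members and 0.09 in the other cells, and the MHC class I gene H2-K1 at -0.227 in members and 0.06 in the other cells.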

How the results depend on the processing

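The share of members in Tcf7WT, 1.67%, became 2.43% with 1 choosing-gene UMI, 1.17% with 3, 3.37% with Lef1 and S1pr1, 1.39% thinned, 2.61% without cells carrying other types' markers and 1.14% with at least 2 choosing genes. In Tcf7KO, 1.31% became 1.90% with 1 UMI, 1.69% with S100a4 and Gzma ignored, 3.41% with Lef1 and S1pr1, 1.91% without cells carrying other types' markers and 0.674% with at least 2 choosing genes. Genes at least 1.5-fold higher in Tcf7WT members than in the other cells numbered 1859, 3117 at a minimum of 20 UMIs and 836 at 200; in Tcf7KO they numbered 2062, 3369 and 920, and 3628 with at least 2 choosing genes. With Lef1 and S1pr1 as choosing genes these counts were 836 and 1028, the count of lower genes in Tcf7WT went from 2913 to 1786, and those between genotypes were 220 higher and 192 lower. Between genotypes, 139 genes were higher, and 44 thinned, 65 with at least 2 choosing genes, 88 with fewer than 3 IEL-panel UMIs, 607 at 20 and 8 at 200; 114 were lower, and 48 thinned, 74 with at least 2 choosing genes, 514 at 20 and 7 at 200. A minimum sets how many genes enter, and the cause of the other shifts was not tested. TMM and DESeq2 factors moved the median over all genes of Tcf7WT members against other cells by 0.13 and 0.17 (log2) and each other median by less than 0.1. Both planned swaps of choosing genes were not run, and the one given here was chosen after the data were seen. Of the other checks of shares and gene counts, 86 stayed within their counting interval or 1.5 times.

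Log2 values at least 1.5-fold from 0, with single genes' intervals clear of 0, turned sign as follows, where single genes kept at least 20 UMIs. With 1 choosing-gene UMI, the sign turned between genotypes (Id3 -0.022, S100a6 -0.039) and against the other Tcf7WT cells (S100a6 0.022). With 3, the sign turned against the other Tcf7WT cells (Ifng -0.73). With Lef1 and S1pr1 as choosing genes, the sign turned between genotypes (the recent thymic emigrant genes median -0.027, Cd160 -0.016, Xcl1 -0.89, Ikzf2 -0.17, Id3 -0.39, Ctla4 0.62, Tagap 0.20, Hspa1b 0.21, Tpi1 -0.28) and against the other Tcf7WT cells (Id3 0.24, S100a6 0.63) and against the other Tcf7KO cells (the coreceptors median -0.72, Ahr 0.039, Ctla4 0.18). With thinned cells, the sign turned between genotypes (the NK receptors and ITAM adaptors median -0.30, Itga4 0.13). In members with a Cd8b1 UMI, the sign turned between genotypes (the NK receptors and ITAM adaptors median -0.15, Cd160 -0.42, Cd7 -0.056, Xcl1 -0.063, Ikzf2 -0.78). In members with at least 2 choosing genes, the sign turned between genotypes (the NK receptors and ITAM adaptors median -0.20, Fcer1g -1.51, Cd160 -0.32, Cd7 -0.17, Ikzf2 -1.17) and against the other Tcf7WT cells (Ifng -1.24). In members with fewer than 3 IEL-panel UMIs, the sign turned between genotypes (the NK receptors and ITAM adaptors median -0.71, Ikzf2 -1.42, Id3 -0.14, S100a6 -1.69). With S100a4 and Gzma ignored, the sign turned against the other Tcf7WT cells (S100a6 0.48). Without cells carrying other types' markers, the sign turned between genotypes (the NK receptors and ITAM adaptors median -0.51, Xcl1 -0.21, Ikzf2 -0.61). Without the UMIs of each gene's top cell, the sign turned against the other Tcf7KO cells (the coreceptors median -0.29). On fewer than 20 UMIs, Fcer1g and Xcl1 turned to -1.40 and -1.55 with fewer than 3 IEL-panel UMIs, and S100a6 to -0.78 with at least 2 choosing genes. Among smaller values, Klf2, Cd8b1 and Il7r between genotypes also turned, to 0.18, 0.080 and 0.25 with at least 2 choosing genes. No paired analysis was possible because each genotype is 1 library, and for the same reason no library could be left out. Depth limits the values too: members hold 1.61% and 1.40% of their libraries' UMIs.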

Other observations

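Receptor segments were seen in few members. A single Trbv segment was detected in 10 Tcf7WT and 6 Tcf7KO members, and it was Trbv12-2 in 4 of each. In the other cells Trbv12-2 was the segment in 20.1% of 588 and 18.0% of 478 such cells. The members' share was 40.0% (12.2 to 73.8) in Tcf7WT and 66.7% (22.3 to 95.7) in Tcf7KO. A single Trav segment was detected in 21 and 12 members, and no segment was seen in more than 2 of them.

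The replication licensing genes Mcm3, Mcm5 and Mcm6 stood higher in Tcf7KO members, with 32, 19 and 32 UMIs against 15, 9 and 19 in Tcf7WT. Their log2 ratios were 1.44 (0.51 to 2.43), 1.42 (0.21 to 2.75) and 1.10 (0.23 to 1.997), and 0.17, 0.28 and 0.24 in the other cells. They were picked after their values were seen: of the 4 cell cycle list genes with 50 UMIs, 1 was at least 1.5-fold higher, and the list's median was 0.045. With at least 2 choosing genes Mcm3 and Mcm5 stood at 1.03 each, with intervals that include 0, and Mcm6 at 1.25 (0.03 to 2.495). In members with fewer than 3 IEL-panel UMIs the intervals of all 3 include 0. The death ligand gene Fasl had 2 UMIs in Tcf7WT members and 19 in Tcf7KO members, a log2 ratio of 3.59 (1.54 to 6.74), against 0.95 in the other cells, and of 2.84 (0.44 to 6.14) with at least 2 choosing genes. Ifng had 73 and 11 UMIs, of which 35 of the 73 came from 1 cell. Ccr9, a gut homing receptor, was at 85.9 and 179 CPM in members, a log2 ratio of 1.06 (0.35 to 1.79), and of 0.48 (-0.57 to 1.49) with at least 2 choosing genes.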
